A study of Homo sapiens with 13 samples.

Results

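The MYC and MAX network is a family of basic helix-loop-helix leucine zipper transcription factors, and 8 of its genes, MYC, MAX, MXD1, MXD3, MXD4, MXI1, MNT and MGA, were followed here by their symbols among the 38369 gene rows of each deposited table. Each of the 8 had 1 row and passed the filter on low values in both experiments, in which 12790 genes (transduction) and 15572 genes (tamoxifen) were tested. The libraries were polyA-selected RNA-seq of MCF10A, a line of immortalised breast epithelium that forms no tumours, although the labels give the cell type as breast cancer. MCF10A-Src cells, in which tamoxifen activates an introduced Src kinase, gave 1 library before tamoxifen (0 h), 2 after 4 h, 1 after 12 h and 2 after 36 h. Parental MCF10A cells were harvested 72 h after transduction with the long intergenic RNA LINC00520 (2 libraries) or as untransduced controls (3 libraries), which the titles call untransduced and the descriptions call mock transduced. All cells grew in F12/DMEM with equine serum, hydrocortisone, cholera toxin, EGF and insulin. Samples of a control lincRNA, AC006262.1, were not analysed here, so an effect of LINC00520 and an effect of transduction cannot be told apart, and with no untreated cells at 4, 12 or 36 h neither can Src activation and time in culture. No label ties a replicate to a culture of its own, and the p-values therefore reflect the spread among these libraries alone, which may be technical.

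As background, MYC binds DNA only as a heterodimer with MAX, at E-boxes, and drives genes of ribosome biogenesis, nucleotide synthesis and the cell cycle. The MXD proteins, MXI1 and MNT pair with the same MAX, occupy the same E-boxes and recruit the SIN3-HDAC corepressor, so that the balance between MYC and these antagonists sets the output of shared target genes. MXD1 and MXI1 are typically high in cells that leave the cell cycle or differentiate, whereas MYC is an immediate-early gene of growth factor and Src signalling. MGA, the largest of these proteins, joins MAX in a repressive Polycomb complex called PRC1.6.

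Depth ranged from 12576940 fragments in 1 of the 36 h libraries to 52335486 fragments at 0 h. Replicate spread was narrow after transduction (common biological coefficient of variation 0.0249) and wider in the tamoxifen series (0.162), where the 4 h pair stood further apart than the 36 h pair. The row taken as LINC00520, named linc-TBPL2-2 and lying between KTN1 and PELI2 in the files, had 1122 and 1031 fragments in the LINC00520 libraries. The untransduced libraries had 5, 6 and 2. In the tamoxifen series this row had 91 fragments at 0 h, 30 and 22 at 4 h, 415 at 12 h and 3346 and 2124 at 36 h. All 12 of 12 basal epithelial markers of MCF10A exceeded 1 CPM (fragment counts scaled to library size) in every library. In the bulk RNA used here, fewer cells of a type and less RNA per cell cannot be told apart.

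MYC itself was lower late in the tamoxifen series. Its row (chr8:128698588-128756403, hg19) stood at 13.8 CPM at 0 h, at 14.4 and 16.2 CPM at 4 h, at 7.95 CPM at 12 h and at 7.87 and 8.35 CPM at 36 h. The 12 h and 36 h libraries were all below the 0 h and 4 h libraries, with no overlap. MYC fell at 36 h, to 8.11 ± 0.337 CPM against 15.3 ± 1.26 CPM at 4 h (SD, n = 2 each), with a log2 difference of -0.92 (SE 0.199, adjusted p = 0.00876 by edgeR's quasi-likelihood test with Benjamini-Hochberg adjustment, as for every adjusted p that follows). Against 0 h the 36 h value was -0.77 (SE 0.231, adjusted p = 0.0525), and the 12 h value was -0.95 against 4 h (SE 0.244, adjusted p = 0.0764); neither passed the threshold of 0.05.

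Most fragments at the MYC locus were not in the row named MYC. A row that overlaps it, named linc-MYC-AS in the files, held 94.6% to 96.8% of the fragments of both rows in the tamoxifen libraries and 95.7% to 96.0% in the transduction libraries. At 0 h, for example, linc-MYC-AS had 13786 fragments and MYC had 788. Whether the authors counted by strand is not given in the sources used here, and without strand the reads of a gene and of its antisense partner cannot be told apart.

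The linc-MYC-AS row was highest at 4 h. It stood at 241 CPM at 0 h, at 419 and 489 CPM at 4 h, at 164 CPM at 12 h and at 162 and 155 CPM at 36 h. The 4 h libraries were the highest of the 6, and the 12 h and 36 h libraries were below 0 h. Its log2 change was 0.91 at 4 h against 0 h (SE 0.195, adjusted p = 0.036), where the MYC row had 0.15 (adjusted p = 0.717) and the difference between the rows was not tested. The later changes were -1.47 at 12 h against 4 h (SE 0.201, adjusted p = 0.00853) and -1.52 at 36 h against 4 h (SE 0.157, adjusted p = 0.00034). With both rows summed, an alternative added after the rows had been seen, the locus had log2 changes of 0.88 at 4 h against 0 h (adjusted p = 0.0397), -1.45 at 12 h against 4 h (adjusted p = 0.00897) and -1.5 at 36 h against 4 h (adjusted p = 0.000369). At 36 h against 12 h the summed locus had a log2 value of -0.05.

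**Figure D1:**
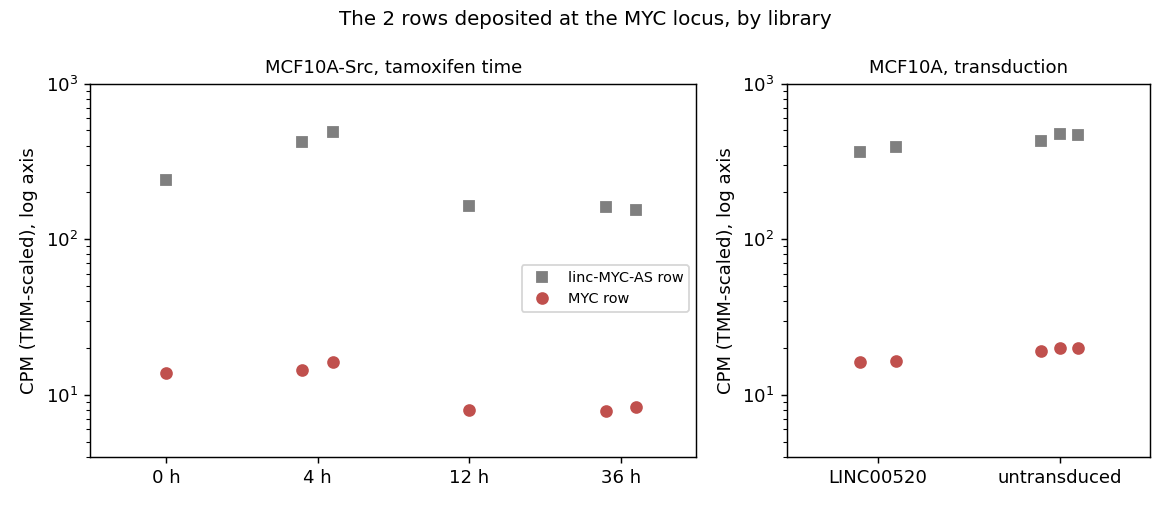
CPM after TMM scaling, on a log axis, of the 2 rows deposited at the MYC locus, with a point for each library; red circles are the MYC row and grey squares the linc-MYC-AS row, by hours of tamoxifen (left) and by transduction (right). The grey squares lie far above the red circles in all 11 libraries and are highest at 4 h, with 419 and 489 CPM against 241 CPM at 0 h.

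MAX, the shared partner, was highest at 4 h. Its row (chr14:65381139-65569227, hg19) had 27.6 CPM at 0 h, 42.0 and 53.3 CPM at 4 h, 37.1 CPM at 12 h and 24.0 and 28.3 CPM at 36 h. The 4 h libraries were the highest, and the 36 h libraries lay on either side of 0 h. MAX fell at 36 h relative to 4 h, with a log2 change of -0.87 (SE 0.193, adjusted p = 0.00956), while its value of 0.79 at 4 h against 0 h did not pass (SE 0.237, adjusted p = 0.0924). The 36 h against 0 h value of MAX depended on the quantity used, at -0.08 in counts and 0.57 as the log2 ratio of mean FPKM (fragments scaled by transcript length and depth). Rows of CHURC1 with FNTB, of GPX2, of RAB15 and of linc-CHURC1-FNTB-AS overlap this locus in the files, and MAX reads are uncertain to that extent.

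The antagonists did not move together. MXD1, a repressor induced in differentiating epithelium, was the member with a call in both comparisons of 36 h. Its row (chr2:70142202-70170074, hg19) had 33.2 CPM at 0 h, 34.3 and 34.9 CPM at 4 h, 58.1 CPM at 12 h and 62.8 and 65.0 CPM at 36 h. All 3 libraries at 12 h and 36 h were above all 3 at 0 h and 4 h. MXD1 rose at 36 h to 63.9 ± 1.56 CPM, against 34.6 ± 0.379 CPM at 4 h (SD, n = 2 each), a log2 change of 0.88 (SE 0.155, adjusted p = 0.00361); against 0 h it rose by 0.94 (SE 0.194, adjusted p = 0.0132). The 12 h values, 0.81 against 0 h (adjusted p = 0.0908) and 0.75 against 4 h (adjusted p = 0.0641), did not pass with 1 library at 12 h.

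MXI1, an antagonist related to MXD1, was highest at 36 h. Its row (chr10:111967362-112047121, hg19) had 35.0 CPM at 0 h, 22.6 and 30.6 CPM at 4 h, 24.5 CPM at 12 h and 42.2 and 40.6 CPM at 36 h. The 36 h libraries were above all others, and the 4 h and 12 h libraries were below 0 h. MXI1 rose at 36 h relative to 4 h by 0.64 (SE 0.195, adjusted p = 0.0337), and the value against 12 h was 0.76 (SE 0.245, adjusted p = 0.0623).

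MXD4, a widely expressed antagonist, was lowest at 36 h. Its row (chr4:2249156-2263739, hg19) had 40.5 CPM at 0 h, 47.7 and 51.6 CPM at 4 h, 35.8 CPM at 12 h and 26.5 and 25.6 CPM at 36 h. No 36 h library reached the level of any other library. MXD4 fell at 36 h relative to 4 h, with a log2 change of -0.93 (SE 0.162, adjusted p = 0.00354), and against 0 h its value was -0.64 (SE 0.191, adjusted p = 0.0527). A row named linc-MXD4-AS held 15.0% to 29.5% of the fragments of both rows at this locus, and with the rows summed the value at 36 h against 4 h was -0.72 (adjusted p = 0.00913).

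MXD3, an antagonist known from proliferating cells in S phase, MNT, the most widely expressed antagonist, and MGA gave no call in any tamoxifen comparison. MXD3 (chr5:176730834-176739292, hg19) had 21.4 CPM at 0 h, 18.4 and 21.7 CPM at 4 h, 27.3 CPM at 12 h and 19.7 and 19.8 CPM at 36 h, so that the 12 h library alone stood above the rest; its locus also holds PRELID1. MNT (chr17:2287354-2304258, hg19) had 10.3 CPM at 0 h, 20.5 and 11.2 CPM at 4 h, 11.9 CPM at 12 h and 10.4 and 12.2 CPM at 36 h, and 1 of the 4 h libraries stood apart. MGA (chr15:41913763-42062139, hg19) had 101 CPM at 0 h, 84.1 and 81.2 CPM at 4 h, 86.9 CPM at 12 h and 90.1 and 77.5 CPM at 36 h. The 36 h and 4 h libraries overlapped for all of these 3 genes, and the 95% intervals of that difference ran from -0.44 to 0.40 for MXD3, from -1.18 to 0.20 for MNT and from -0.34 to 0.38 for MGA on the log2 scale.

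**Figure D2:**
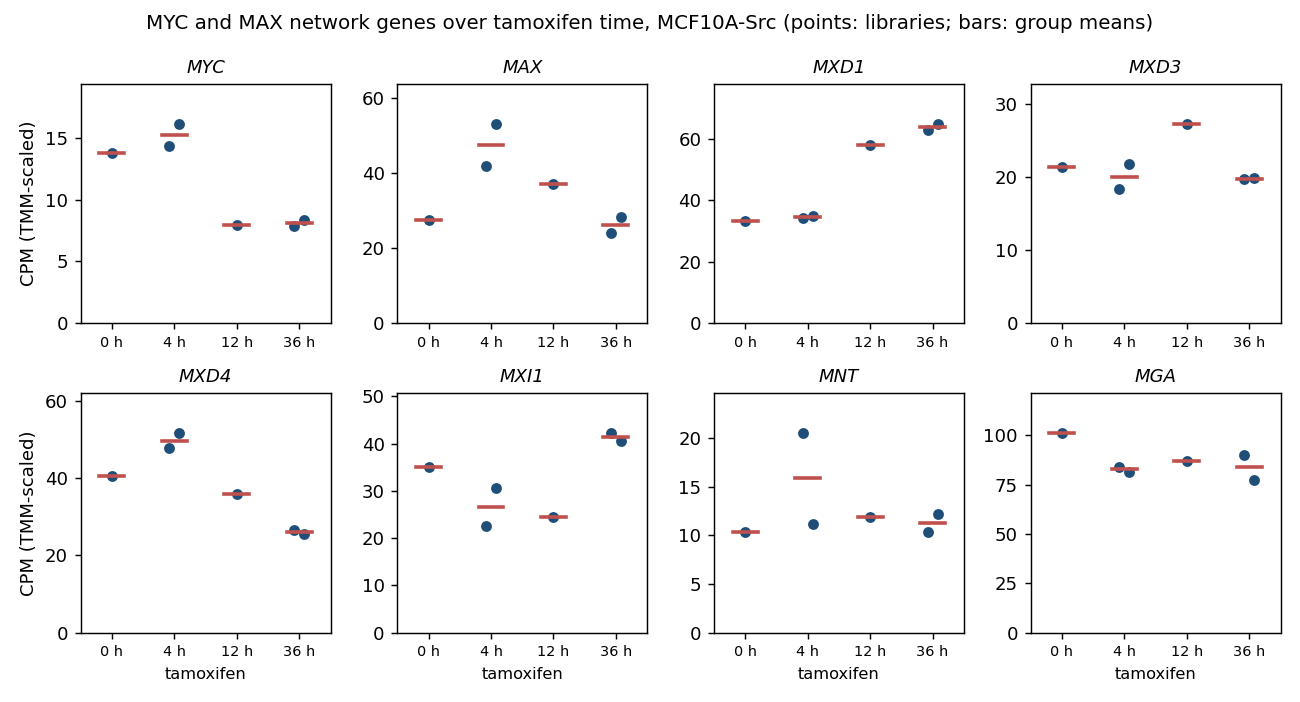
CPM after TMM scaling of the 8 network genes by hours of tamoxifen in MCF10A-Src cells; points are libraries (1 at 0 h, 2 at 4 h, 1 at 12 h, 2 at 36 h), red bars are group means and every axis starts at 0. MXD1 at 12 h and 36 h lies above its 0 h and 4 h libraries, MYC at 12 h and 36 h lies below them, and MXD4 is lowest at 36 h with 26.5 and 25.6 CPM.

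In all, 5 of the 8 genes passed at 36 h against 4 h, 2 higher and 3 lower, where 39.4% of all 15572 genes tested passed. Of all genes, 18.8% passed as higher and 20.5% as lower. Against 0 h, 1 of 8 passed at 36 h, as higher, beside 19.4% of all genes (9.99% higher and 9.36% lower). With edgeR 0 of 8 passed at 12 h against 0 h (4.24% of all genes) and 0 of 8 at 4 h (6.24%), while 2 and 1 members had an unadjusted p under 0.05, and DESeq2 and limma also called 0. In the comparisons added after the levels were seen, 0 of 8 passed in edgeR at 12 h against 4 h (4.6% of all genes) and 0 of 8 at 36 h against 12 h (20.9%). The unadjusted p was under 0.05 for 3 and 2 members there, DESeq2 called 0 and 1, and limma called 0 in both. The comparisons share libraries and are not separate evidence. The median absolute log2 change of the 8 genes at 36 h against 4 h was 0.76, beside 0.53 over all genes.

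These calls rested on few libraries. Without 36 h replicate 1 the calls of MYC (adjusted p = 0.0845), MAX (0.0798) and MXI1 (0.146) at 36 h against 4 h were lost, and without 36 h replicate 2 those of MYC (0.0531) and MXI1 (0.114) were lost, while MXD1 and MXD4 passed in both cases. Without 4 h replicate 2, MNT passed as lower at 36 h, with a log2 value of -0.82 (adjusted p = 0.00586). The MXD1 call against 0 h was lost without either 36 h library (adjusted p = 0.0506 and 0.0728). With limma on log2(FPKM + 1) the 36 h against 4 h calls of MAX (adjusted p = 0.202), MXD1 (0.0704) and MXI1 (0.0608) were lost, and scaling by library totals ended that of MXI1 (0.143), whereas MXD4 passed under all 13 alternatives. In the authors' deposited table, MXI1 alone among the 8 was called at 36 h against 4 h (log2 fold change 0.67, q = 0.00793), where 28.1% of the genes tested there were called.

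**Figure D3:**
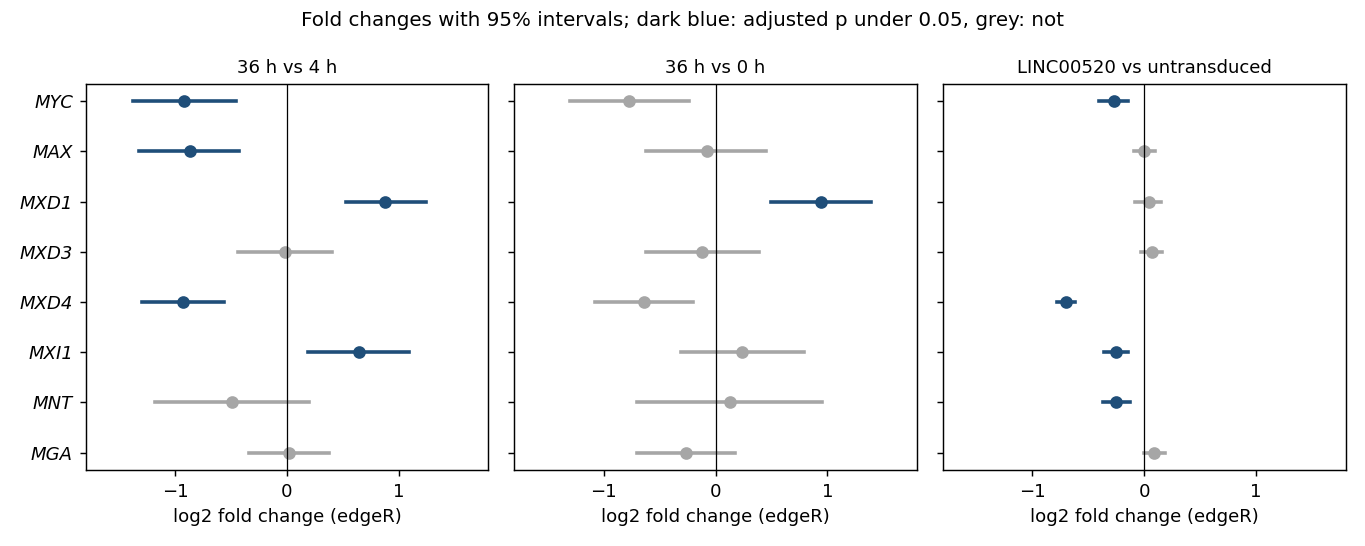
Log2 fold changes from edgeR with 95% intervals for the 8 network genes at 36 h against 4 h (left), at 36 h against 0 h (middle) and with LINC00520 against untransduced (right); dark blue marks an adjusted p under 0.05 and grey the rest. MXD1 and MXI1 are right of 0 and MYC, MAX and MXD4 left of it in the left panel, while MXD4 at -0.70 is furthest from 0 in the right panel.

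Per transcript length, and with MYC as the row of that name alone, MAX was the highest member at every time. It had 17.1 FPKM before tamoxifen, 38.3 ± 12.8 FPKM after 4 h, 30.3 FPKM after 12 h and 25.3 ± 5.12 FPKM after 36 h (SD, n = 2 at 4 h and at 36 h). The second place in this order passed from MXD4, with 15.4 FPKM at 0 h and 20.7 ± 4.05 at 4 h, to MXD1, with 16.2 FPKM at 12 h and 18.7 ± 0.268 at 36 h. With linc-MYC-AS added, MYC had 31.2 FPKM at 0 h and 49.7 and 59.4 FPKM at 4 h, above MAX in each of these libraries. The same sum was 20.7 FPKM at 12 h and 21.4 and 21.3 FPKM at 36 h, below MAX. The 2 rows differ in FPKM per fragment. At 12 h, 225 fragments of MYC gave 4.31 FPKM and 4655 fragments of linc-MYC-AS gave 16.4 FPKM. Whether the summed locus stands above or below MAX therefore depends on the length used for each row, and is not settled by these values. MNT was last at every time, at 2.04 to 3.24 FPKM on average. At 4 h the libraries of MGA, MXD1, MYC and MXD3 overlapped with those of the next gene in the order, and at 36 h those of MGA with MXI1 and of MXD3 with MXD4 did.

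Set against the row named MYC, the summed FPKM of the 5 antagonists (MXD1, MXD3, MXD4, MXI1 and MNT) was 6.11 times the MYC level at 0 h, 5.61 and 6.19 times it at 4 h, 12.0 times it at 12 h and 11.1 and 9.69 times it at 36 h. With linc-MYC-AS added to MYC, the same ratio was 1.54 at 0 h, 0.907 and 0.986 at 4 h, 2.50 at 12 h and 2.39 in both 36 h libraries. Under both sums the 12 h and 36 h libraries were above the 0 h and 4 h libraries. The make-up of the antagonists differed as well, since MXD4 had 0.448 and 0.436 times the FPKM of MXD1 at 36 h, against 2.10 and 1.75 times at 4 h. The size of the ratios with linc-MYC-AS added depends on the length used for each row. These ratios are descriptions with no test.

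LINC00520 libraries had lower MYC and lower MXD4, MXI1 and MNT. MXD4 showed the largest difference of the 8 genes. It had 83.2 and 84.4 CPM in the LINC00520 libraries, against 132, 142 and 134 CPM in the untransduced libraries. No library of either group came near the other, and the log2 fold change was -0.70 (SE 0.0375, adjusted p = 2.19e-13). MXD4 was also called in the authors' deposited table (log2 fold change -0.71, q = 0.00123), the only one of the 8 genes to be called there, where 12.9% of the genes tested were called.

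MYC had 16.2 and 16.5 CPM in the LINC00520 libraries, against 19.2, 20.0 and 20.1 CPM in the untransduced libraries, a log2 fold change of -0.27 (SE 0.0641, adjusted p = 0.00112). The linc-MYC-AS row had 362 and 390 CPM with LINC00520 and 425, 478 and 469 CPM untransduced, and its value of -0.28 (SE 0.0395, adjusted p = 2.4e-06) was close to that of MYC. Neither row had overlapping groups, and both rows summed gave -0.28 (SE 0.0389, adjusted p = 1.93e-06).

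MXI1 had 35.9 and 35.7 CPM in the LINC00520 libraries, against 40.1, 43.4 and 44.7 CPM in the untransduced libraries, with a log2 fold change of -0.25 (SE 0.0543, adjusted p = 0.000453). MNT had 21.0 and 21.4 CPM with LINC00520, against 24.9, 26.2 and 24.0 CPM untransduced, also -0.25 (SE 0.0593, adjusted p = 0.0012). Both genes had lower values in all LINC00520 libraries than in any untransduced library.

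The other 4 genes did not pass. MAX averaged 53.6 ± 1.53 CPM with LINC00520 (SD, n = 2) and 53.4 ± 1.31 CPM untransduced (SD, n = 3), and the 95% interval of its log2 difference ran from -0.09 to 0.10. For MXD1 the interval was -0.08 to 0.15, with 25.4 and 26.7 CPM against 25.3, 25.9 and 25.0 CPM untransduced. The groups did not overlap for MXD3 and MGA, although neither passed, and for MXD3 the gap lay within the rounding of the values given. The share of all genes whose groups did not overlap was not counted in either experiment, so a lack of overlap is a description alone. MXD3 had 55.9 and 56.4 CPM with LINC00520 and 55.9, 51.3 and 53.5 CPM untransduced, and its log2 value was 0.07 (adjusted p = 0.245). MGA had 46.7 and 47.7 CPM with LINC00520 and 42.8, 45.6 and 44.4 CPM untransduced, and its log2 value was 0.09 (adjusted p = 0.105).

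In all, 4 of 8 genes passed with LINC00520, 0 higher and 4 lower, where 50.0% of the 12790 genes tested passed and 24.8% passed as lower. The share of members called equals the share of all genes called. In FPKM the untransduced order led with MXD4 (36.1 ± 1.41), followed by MAX (30.1 ± 1.16) and MXD3 (21.0 ± 0.842), and with LINC00520 MAX led (30.5 ± 1.31), followed by MXD3 (22.3) and MXD4 (22.1). None of these neighbours overlapped within a group. The summed antagonists over the MYC row stood at 7.36 and 6.57 with LINC00520, against 7.09, 7.30 and 7.11 untransduced, so the groups overlapped.

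**Figure D4:**
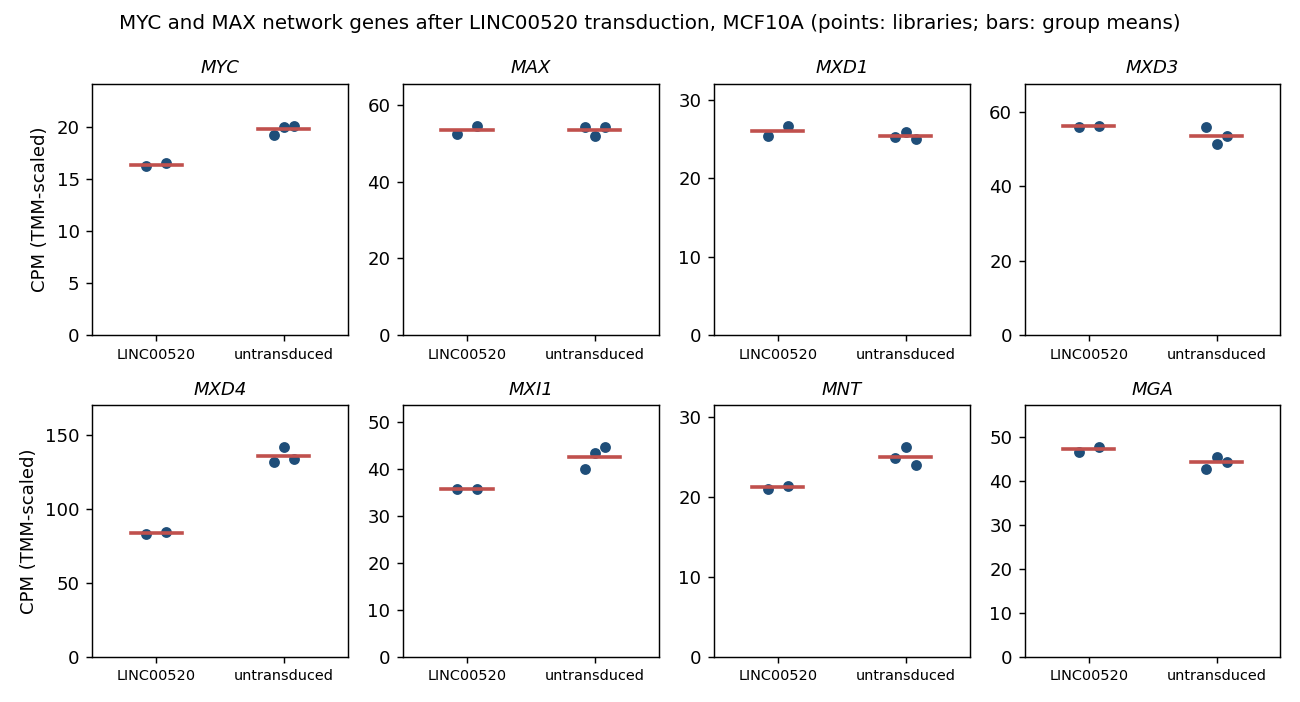
CPM after TMM scaling of the 8 network genes in MCF10A cells with LINC00520 (left in each panel, 2 libraries) and untransduced (right, 3 libraries); points are libraries, red bars are group means and every axis starts at 0. MXD4 shows the widest gap, with 83.2 and 84.4 CPM against 132 to 142 CPM.

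Promoter sequences are shown for the antagonists with calls, to set the letters of an E-box or a forkhead site beside the genes' behaviour. RefSeq windows (GRCh38.p14, 250 bases before to 50 after a start) were matched for 7 of the 8 members, in 12 windows, and MYC had none. The E-box CACGTG, which reads the same on both strands, was in the windows of MXD4 and MNT and in 7.26% of 35116 windows. A forkhead site, GTAAACA or its reverse complement TGTTTAC, was in 2 of the MXI1 windows and in 3.42% of all windows. A match, or the lack of one, is a description of these letters alone and says nothing about binding. Other spellings of the sites were not searched. Below, capitals mark the motif in the 250 bases before the start, from 5′ to 3′ on the gene's strand. MXD4 lies at chr4:2262110-2262359 (minus strand), MNT at chr17:2401061-2401310 (minus strand), the MXI1 window shown at chr10:110209981-110210230 (plus strand) and MXD1, with no match of either motif, at chr2:69914859-69915108 (plus strand).
MXD4: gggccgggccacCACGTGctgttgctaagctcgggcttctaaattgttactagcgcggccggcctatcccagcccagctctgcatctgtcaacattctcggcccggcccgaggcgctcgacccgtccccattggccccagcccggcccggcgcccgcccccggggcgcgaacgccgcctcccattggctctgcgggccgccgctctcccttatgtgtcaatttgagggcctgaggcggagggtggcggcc
MNT: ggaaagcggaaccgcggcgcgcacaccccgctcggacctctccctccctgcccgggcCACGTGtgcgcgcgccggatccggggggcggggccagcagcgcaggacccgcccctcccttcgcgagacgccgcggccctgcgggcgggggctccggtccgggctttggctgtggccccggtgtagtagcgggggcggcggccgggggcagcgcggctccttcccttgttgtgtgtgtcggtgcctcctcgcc
MXI1: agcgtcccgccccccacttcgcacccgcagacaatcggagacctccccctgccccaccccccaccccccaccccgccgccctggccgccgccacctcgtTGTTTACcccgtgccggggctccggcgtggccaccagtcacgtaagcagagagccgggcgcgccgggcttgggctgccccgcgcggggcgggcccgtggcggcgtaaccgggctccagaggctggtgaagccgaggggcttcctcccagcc
MXD1: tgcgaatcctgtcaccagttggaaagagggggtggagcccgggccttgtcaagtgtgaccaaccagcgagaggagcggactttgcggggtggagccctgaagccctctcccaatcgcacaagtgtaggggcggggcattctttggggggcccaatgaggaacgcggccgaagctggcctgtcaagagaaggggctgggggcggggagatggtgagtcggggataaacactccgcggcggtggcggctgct
The E-box begins 238 bases before the MXD4 start and 193 bases before the MNT start. In the MXI1 window shown, the forkhead letters begin 151 bases before its start. In the other MXI1 window with a match they begin 2 bases before its own start, and a further MXI1 window has none. Which of these starts the cells used was not tested. MXD4 and MNT were both lower with LINC00520, and so was MXI1, which had no E-box in its windows. MXI1 and MNT each had a log2 fold change of -0.25 there. At 36 h against 4 h MXD4 fell while the MNT groups overlapped. The relation of these letters to the changes was not tested.

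Target genes known to be activated by MYC were split between the experiments. The list held 40 genes of ribosome biogenesis, nucleotide synthesis, metabolism and the cell cycle. Of 38 tested, 17 fell and 2 rose at 36 h against 4 h, with a median of -0.30, where 20.5% of all genes fell, 18.8% rose and the median was -0.04. Scaling by library totals gave 21 lower and 0 higher. Against 0 h, 6 of the 38 were lower and 3 higher at 36 h, with a median of -0.10, beside 9.36% and 9.99% of all genes. CDC25A, a phosphatase that drives the cell cycle, averaged 15.4 CPM at 36 h and 49.4 CPM at 4 h, with a log2 change of -1.68 (SE 0.18, adjusted p = 0.000403). PPAN, a factor of large ribosomal subunit assembly, averaged 25.1 CPM at 36 h and 77.4 CPM at 4 h, and MYBBP1A, a nucleolar protein, 55.7 CPM at 36 h and 163 CPM at 4 h. PPAN shares its row with P2RY11. LDHA and HK2, enzymes of glycolysis, were the 2 that rose, by 0.66 and 0.68, and neither passed under limma or library totals.

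With LINC00520, 26 of 37 tested MYC-activated genes rose and 1 fell, with a median of 0.18, where 25.2% of all genes rose and the median was 0.00. NOP56, a component of box C/D ribonucleoproteins, averaged 242 CPM with LINC00520 and 177 CPM untransduced, a log2 change of 0.45 (SE 0.0344, adjusted p = 1.18e-10). CDC25A averaged 40.9 CPM with LINC00520 and 25.3 CPM untransduced, with 0.69 (SE 0.0552, adjusted p = 2.99e-10). NOP58, the partner of NOP56, and CAD, the first enzyme of pyrimidine synthesis, each rose by 0.32. SHMT2, a mitochondrial enzyme of serine and glycine metabolism, was the 1 gene that fell, with -0.19. The MYC row was lower in these same libraries.

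Genes known to be repressed by MYC numbered 12. With LINC00520, 7 of 10 tested fell and 0 rose, with a median of -0.28, where 24.8% of all genes fell. CDKN1C, a cyclin-dependent kinase inhibitor, averaged 5.34 CPM with LINC00520 and 15.8 CPM untransduced, with a log2 change of -1.56 (SE 0.0993, adjusted p = 4.86e-12), and TXNIP, an inhibitor of glucose uptake, averaged 460 CPM with LINC00520 and 751 CPM untransduced. BTG2, an antiproliferative gene, had -0.37 and CDKN1A, a kinase inhibitor known as p21, had -0.17. Of 8 tested, 4 rose and 3 fell at 36 h against 4 h, with a median of 0.29, beside 18.8% of all genes higher and 20.5% lower. NDRG1, a gene also known for its response to hypoxia, averaged 619 CPM at 36 h and 80.2 CPM at 4 h, and CDKN1B, another kinase inhibitor, rose by 1.00. BTG2 had -0.93 and CEBPA, a differentiation factor, had -1.16. Without 36 h replicate 2 these counts were 2 higher and 0 lower, and the list median was 0.03 with library totals and -0.14 with no filter.

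**Figure D5:**
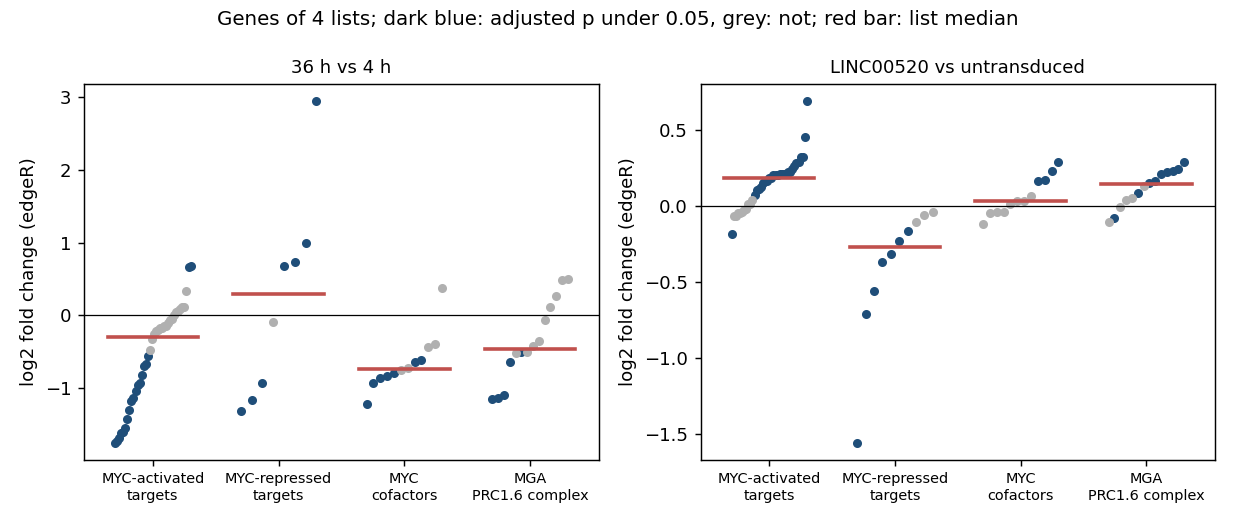
Log2 fold changes from edgeR of the tested genes of 4 lists, sorted within each list, at 36 h against 4 h (left) and with LINC00520 against untransduced (right, on its own scale); dark blue marks an adjusted p under 0.05, grey the rest, and red bars are list medians. The median of the MYC-activated genes is -0.30 in the left panel and 0.18 in the right, and that of the MYC-repressed genes 0.29 and -0.28.

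Cofactors that MYC recruits fell in 7 of 12 cases at 36 h against 4 h, with a median of -0.74, beside 20.5% of all genes. Against 0 h, 1 of the 12 was lower at 36 h, beside 9.36% of all genes. The ATPases RUVBL2 and RUVBL1 had log2 changes of -0.93 and -0.86. WDR5, an adaptor that tethers MYC to chromatin, had -0.64. Without 36 h replicate 2 the count was 2, and under limma it was 3. With LINC00520, 4 of 12 rose, beside 25.2% of all genes, among them WDR5 by 0.29 and ACTL6A, a subunit shared by chromatin remodelling complexes, by 0.23.

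SIN3-HDAC genes, which encode the corepressor of the antagonists, were mixed. Of 14 tested, 5 rose and 2 fell at 36 h against 4 h, beside 18.8% and 20.5% of all genes. Without either 36 h library 3 rose, and library totals gave 3 higher and 7 lower. Against 0 h, 1 of the 14 was higher and 0 lower at 36 h, beside 9.99% and 9.36% of all genes. ARID4A, a SIN3-associated subunit, averaged 38.6 CPM at 36 h and 8.67 CPM at 4 h, with a log2 change of 2.15 (SE 0.184, adjusted p = 0.000149). At 0 h ARID4A had 24.7 CPM. ING2 rose by 1.78, ING1 rose by 0.93 and BRMS1 had -1.56, all of them subunits of the same complex. Their 4 h levels already differed from 0 h in the opposite direction. At 4 h against 0 h ARID4A had -1.51, ING2 -0.49, ING1 -0.62 and BRMS1 0.87, and of these ARID4A alone passed. With LINC00520, 5 of 14 rose and 3 fell, with -0.34 for SIN3B, -0.36 for ARID4A and 0.30 for BRMS1. Of all genes 25.2% rose and 24.8% fell, and the 5 higher became 1 without LINC00520 replicate 1 and 2 under DESeq2 and limma.

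PRC1.6 is the complex that MGA scaffolds. Of 14 genes of this complex tested, 5 fell at 36 h against 4 h, among them L3MBTL2 with -1.14, the DNA-binding partners TFDP1 with -1.09 and E2F6 with -1.15, and WDR5 with -0.64. Of all genes 20.5% fell, and the 5 became 3 without either 36 h library, 8 without 4 h replicate 1 and 9 under library totals. Against 0 h, 1 of the 14 was lower at 36 h, beside 9.36% of all genes. The MGA value at 36 h against 4 h was 0.02, and the differences between genes were not tested. With LINC00520, 8 rose and 1 fell, with 0.21 for TFDP1 and 0.16 for CBX3, a heterochromatin protein, beside 25.2% of all genes higher. Without LINC00520 replicate 1, 4 were higher. HDAC2 was counted in a row that also names HDAC1. Of 12 germline genes that PRC1.6 silences in mouse cells, 2 were tested, and TDRKH rose at 36 h, with 30.3 CPM against 10.1 CPM at 4 h.

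Genes of MYC protein turnover numbered 10, all tested. The 36 h libraries had 1 higher and 2 lower against 4 h, beside 39.4% called over all genes. The 2 lower became 0 without 36 h replicate 2 and 4 without 4 h replicate 2. PPP2R5A, a regulatory subunit of the phosphatase that acts on MYC, rose by 0.88, the kinase GSK3B had -0.76 and the ubiquitin ligase subunit SKP2 had -0.88. At 4 h against 0 h the values of these genes were -0.65, 0.59 and 0.37, and did not pass. Against 0 h, 0 of the 10 passed at 36 h, beside 19.4% of all genes. With LINC00520, 4 rose and 1 fell, AURKA, a kinase that stabilises MYC proteins, with 0.49 and USP37, a deubiquitinase, with 0.48, beside 25.2% of all genes higher. Of 9 listed genes of the wider network 6 were tested, and 3 rose with LINC00520, which were MYCBP at 0.19 in a row that also names GJA9 and RRAGC, TFAP4 at 0.20 and MYCBP2 at 0.10, beside 25.2% of all genes. This count was 1 without LINC00520 replicate 2 and under limma. Their values were -0.26, 0.11 and -0.23 at 36 h against 4 h, and did not pass.

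Marker levels moved as well in these comparisons. Of 12 basal epithelial markers, 9 fell and 2 rose at 36 h against 4 h, beside 20.5% and 18.8% of all genes. Against 0 h, LAMB3, KRT6A and CDH3 rose and TP63, EGFR and KRT5 fell. Their summed level was 10283 CPM at 0 h, 17505 and 17424 CPM at 4 h, 16132 CPM at 12 h and 15770 and 13813 CPM at 36 h, so that the 36 h libraries lay between 0 h and 4 h. The summed level of 7 immune and blood markers was 89.3 and 48.0 CPM at 36 h, against 11.4 and 10.2 CPM at 4 h, and 3 of the 7 were at 0 in each of these 4 libraries. CD68, which reached 88.8 CPM, was the 1 marker of that list above 1 CPM, and HBB was at 0 in all 6 libraries. That of 7 fibroblast markers was 120 and 153 CPM at 36 h, against 41.4 and 44.7 CPM at 4 h. DCN reached 148 CPM and COL1A2 was at 0 in all 6 libraries. The 3 endothelial markers measured summed to 6.04 and 5.88 CPM at 36 h, against 1.4 and 1.74 CPM at 4 h, and KDR reached 6.04 CPM while CDH5 was at 0. With LINC00520, 7 of the 12 basal epithelial markers rose and 1 fell, beside 25.2% and 24.8% of all genes. KRT14 rose by 1.44 and KRT6A by 0.54, and their list summed to 15482 and 15925 CPM with LINC00520, against 14383, 13713 and 13794 CPM untransduced. HBB averaged 0.602 CPM with LINC00520 and 0.0279 CPM untransduced, with at most 0.669 CPM in any library and 0 in 2 libraries. At these levels HBB passed the filter on low values only through the LINC00520 libraries, where it was higher. KDR averaged 9.02 CPM with LINC00520 and 11.5 CPM untransduced. The endothelial list summed to 9.43 and 8.69 CPM with LINC00520, against 12.0, 11.4 and 11.4 CPM untransduced, so that the groups did not overlap, and CDH5 was at 0 in all 5 libraries. The immune list summed to 17.8 to 20.6 CPM and the fibroblast list to 33.3 to 34.9 CPM over all 5 libraries. The part of these changes in the values of the network genes was not tested.

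Genes with a course of closely similar shape to that of a network gene were taken by Pearson correlation of log2 CPM among 14843 rows. This correlation ignores the size of a change. It is a description with no test, since all values come from the same 6 tamoxifen libraries. For the MYC row the genes were MACROD1 (0.9961), linc-JAK1-AS (0.9959) and SEMA3C (0.9952). SEMA3C had 111 CPM at 0 h, 135 and 174 CPM at 4 h, 39.2 CPM at 12 h and 33.9 and 35.6 CPM at 36 h. For MXD1 the genes were linc-GAS1-AS (0.9997), PTAFR (0.9985) and GRAMD1B (0.9977). GRAMD1B had 2.42 CPM at 0 h and 311 and 279 CPM at 36 h, where MXD1 had 33.2 CPM and then 62.8 and 65.0 CPM. MAX was followed by TIMM50 (0.9889) and MRPS18C (0.9879), MXD4 by SLC20A2 (0.9968), FAM125A (0.9968) and ST6GALNAC4 (0.9966), and MXI1 by linc-DNAJC9-AS (0.9983), AASS (0.9965) and DNAJB14 (0.9952).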

How the data were processed

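PolyA RNA-seq was made from MCF10A-Src and parental MCF10A cells. The submitters' processing notes name CASAVA 1.4, TopHat, Cuffdiff and hg19; the annotation and the use of strand are not given in the sources used here. The deposited tables give, for each gene row and library, an unscaled estimated count of fragments and FPKM, per the file headers. Deposited tables of the authors' comparisons add p-values, q-values and log2 ratios. In the deposited tamoxifen table that log2 column reached values too large for its scale, so its values are called score values here. The authors made these score values before deposit, as the log2 ratio of their own FPKM values. The log2 values printed from this column are those the authors deposited, given as tested over reference group, and were not computed again.

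Estimated counts were rounded. Genes were kept at 1 FPKM or above, in 2 libraries for transduction and in 1 for tamoxifen, if their Cuffdiff status was OK. Counts were scaled by TMM and tested with edgeR 4.0.16 (glmQLFit, glmQLFTest, R 4.3.3), with a coefficient per group and no replicate block, 2-sided, Benjamini-Hochberg adjusted over all genes, threshold 0.05. For 0 h and 12 h, with 1 library each, the spread of the other 2 groups was assumed. The fits left 3 residual degrees of freedom for transduction and 2 for tamoxifen. CPM are TMM-scaled. Replicate numbers are names only: deviations of same-numbered libraries correlated at -0.067, -0.05 and 0.113, so they were not treated as pairs. Alternatives were other scalings, no filter, DESeq2 1.42.0, limma 3.58.1 on log2(FPKM + 1) and log2(FPKM + 0.1), each replicate left out, a replicate block, and antisense-named rows added to MYC, MXD4 and MGA.

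The LINC00520 condition was found by C14orf34, its older symbol. The members and gene lists were chosen with earlier results of these data known. Named genes are the 8 members, up to 4 called genes with the smallest p of each list, and 3 most similar genes per called member; LDHA, HK2, SHMT2, ING1, CBX3 and SEMA3C were singled out after their values were seen. Some genes that this rule names are not reported here. The 2 control lincRNA samples were not analysed here, and 7 libraries of the transduction table that match no label were not used.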

Additional observations from a re-analysis of the deposited data

How the results depend on the processing

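With LINC00520, MYC, MXD4, MXI1 and MNT passed under all 13 alternatives; MAX, which did not pass, ranged from -0.02 to 0.03 when 1 library was left out. The replicate block left 4 members called there and 5 at 36 h against 4 h, and changed no call. The numbers of members called in the other comparisons moved as follows. At 4 h against 0 h it was 1 with no filter, 1 with antisense-named rows added and 0 to 2 with a library left out. At 12 h against 0 h it was 0 to 2 with a library left out. At 36 h against 0 h it was 2 under library totals, 0 under both limma fits and 0 to 3 with a library left out. The 36 h against 4 h number was 2 under both limma fits and 2 to 6 with a library left out. At 12 h against 4 h it was 1 with no filter, 1 with antisense-named rows added and 0 to 2 with a library left out. At 36 h against 12 h it was 3 under library totals, 1 with no filter, 1 under DESeq2 and 0 to 4 with a library left out. The causes were not tested.

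Values that changed sign did not pass the threshold. Library totals gave -0.04 for MXD1 at 4 h against 0 h, -0.11 for MXI1 and -0.23 for MNT at 36 h against 0 h, -0.23 for MGA at 36 h against 4 h, and -0.28 for MYC and -0.18 for MXD1 at 36 h against 12 h. Both limma fits gave -0.02 and -0.03 for MXD1 at 4 h against 0 h, 0.53 and 0.55 for MAX and 0.09 and 0.1 for MGA at 36 h against 0 h, -0.16 and -0.18 for MGA at 12 h against 4 h, and 0.32 and 0.34 for MGA at 36 h against 12 h. MXD3 at 36 h against 4 h was 0.02 with DESeq2 and with its size factors, 0.01 in the replicate block and 0.0 with those 4 libraries alone, and MGA was -0.02 with no filter. MYC with its antisense-named row was -0.05 at 36 h against 12 h. With a library left out, ranges crossed 0 for MXD3 at 4 h against 0 h (-0.22 to 0.02), MAX at 36 h against 0 h (-0.2 to 0.04), MXD3 (-0.14 to 0.15) and MGA (-0.09 to 0.13) at 36 h against 4 h, MXI1 (-0.32 to 0.14) and MNT (-0.75 to 0.09) at 12 h against 4 h, and MYC (-0.01 to 0.07), MNT (-0.2 to 0.04) and MGA (-0.16 to 0.05) at 36 h against 12 h.

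Library totals moved the median of all genes at 36 h to -0.43 against 0 h, -0.29 against 4 h and -0.33 against 12 h, and left 21.4%, 27.8% and 20.3% of calls higher, where TMM gave 51.6%, 47.8% and 49.5%. Over all alternatives the number of genes called ran from 158 to 4375 at 4 h against 0 h (972 in the reported fit), 223 to 2807 at 12 h against 0 h (661), 1320 to 6101 at 36 h against 0 h (3014), 3549 to 7964 at 36 h against 4 h (6130), 43 to 3194 at 12 h against 4 h (716) and 648 to 6434 at 36 h against 12 h (3250). Depth limits MYC most, with 88 fragments in its row in the shallower 36 h library.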

Other observations

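Rows around the MYC locus were described as a neighbourhood. Within 1 Mb of the MYC row there were 24 other rows, and besides linc-MYC-AS 13 of them were tested in the tamoxifen series and 5 after transduction. Of the 13, 6 were lower and 0 higher at 36 h against 0 h, beside 9.36% and 9.99% of all genes, and 5 were lower and 2 higher at 36 h against 4 h, beside 20.5% and 18.8% of all genes. The row linc-FAM84B-7 had a log2 change at 36 h of -2.6 against 0 h (SE 0.277, adjusted p = 0.000703) and -1.56 against 4 h (SE 0.247, adjusted p = 0.00231). The row linc-FAM84B-2 had -3.99 at 4 h against 0 h (SE 0.348, adjusted p = 0.00177) and 2.37 at 36 h against 4 h (SE 0.34, adjusted p = 0.0015). With LINC00520, 1 of 5 was higher, linc-POU5F1B-AS with 0.30 (adjusted p = 0.00326), and 1 lower, linc-FAM84B-4 with -0.72 (adjusted p = 1.95e-05). Of all genes 25.2% were higher and 24.8% lower there. These rows share the libraries of the MYC row, and their relation to MYC was not tested.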
